A study of Homo sapiens with 30 samples.

Results

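Genes for chromatin cofactors of MYC were examined as a group of 10: WDR5, TRRAP, RUVBL1, RUVBL2, EP400, KAT5, KAT2A, HCFC1, ZBTB17 and BPTF. They were chosen by name, because their products bind MYC or belong to the complexes it recruits, and all 10 were among the 20367 gene symbols of the PRO-Seq table, each with 1 transcript. G401 is a malignant rhabdoid tumor cell line that lacks the chromatin remodeling subunit SNF5 (encoded by SMARCB1). Cells were transduced with a lentiviral TET-inducible construct for EGFP (the control), SNF5 or OmoMYC (a MYC-derived inhibitor), selected with G418, and given 1 µg/ml doxycycline for 24 h, so the controls also carried virus and drug. Each construct had 3 PRO-Seq samples (nuclear run-on sequencing of engaged RNA polymerase), 3 ATAC-Seq samples (open chromatin) and 2 MYC ChIP-Seq samples. The labels do not say whether samples of a construct were separate transductions. The p-values measure the spread left between these samples once the replicate number is fitted, and that spread may be technical.

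MYC is a transcription factor that dimerizes with MAX and binds E-box sequences, most often near the starts of genes. It acts there through cofactors. WDR5 and HCFC1 bind MYC directly, and WDR5 helps to tether it to its sites. TRRAP is a scaffold that brings in the acetyltransferases KAT5 (TIP60) and KAT2A (GCN5), EP400 is the ATPase of the TIP60 complex, RUVBL1 and RUVBL2 are partner ATPases of several remodeling complexes, BPTF is the histone reader of the NURF remodeler, and ZBTB17 (MIZ1) is a zinc finger protein with which MYC represses genes.

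The introduced constructs were first checked. SMARCB1 had 4, 1 and 6 gene body reads in the EGFP samples, 2, 5 and 4 in the OmoMYC samples, and 2870, 4467 and 3440 in the SNF5 samples. All SNF5 samples were therefore far above the others. MYC gene body reads rose with OmoMYC (log2 fold change 0.95, standard error 0.22, adjusted p = 0.037), and SNF5 gave -0.47 (adjusted p = 0.13). Of the OmoMYC samples, replicate 2 stood apart with 11277 MYC reads, against 5066 and 6154. OmoMYC is derived from MYC, so reads from the construct and from the endogenous gene cannot be told apart here. Gene body totals ran from 28444943 to 46957634 reads per sample and promoter-proximal totals from 518900 to 3386528, with replicate 1 of every construct lowest in the promoter-proximal window.

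Sequences with an E-box (CACGTG, read on both strands) or its variant CACGCG, likewise on both strands, that lay within 500 bp of a cofactor gene start and inside a MYC peak of an EGFP sample are shown, because they place the candidate MYC sites. Each is 30 bases of GRCh37 on the strand of the gene, with the motif in capitals. The WDR5 stretch, chr9:137001395-137001424, is intronic. The RUVBL1 stretch, chr3:127842493-127842522, is in a coding exon. The EP400 stretch, chr12:132434694-132434723, is intronic and holds the variant as read on the opposite strand. The KAT5 stretches start at 65479426, 65479446 and 65479476 of chromosome 11, and the BPTF stretch at 65821564 of chromosome 17, all upstream of the canonical GENCODE transcript.
WDR5: acccggccgccgCACGTGttccccgccggg
RUVBL1: gcctcccacagcCACGTGaaagggctgggg
EP400: ggcctcgggcgtCGCGTGgggaccaggccg
KAT5 at -33: aaacggtattgcCACGTGacccgctccgca
KAT5 at -13: ccgctccgcataCACGTGaccagcttcgca
KAT5 at 17: cccggtgggcgtCACGTGacggactcagta
BPTF: ggcggcgcagctCACGTGaccgcgctctgg
KAT5 thus had 3 copies of CACGTG around its start, at -33, -13 and 17 bp from the RefSeq start in the table. Within 100 bp of the start, 5.94% of all 20367 genes had CACGTG and 10.7% had CACGCG. The motifs of WDR5 (at 199 bp), RUVBL1 (164), EP400 (243) and BPTF (-202) lay outside that window, so of the genes shown these shares apply to KAT5 alone. Around the summits of MYC peaks the shares for CACGTG were 51.3% in EGFP replicate 1 and 26.1% in EGFP replicate 2. A match is a description of the letters and not evidence of binding.

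Of the 10 cofactor genes, RUVBL1 alone had a MYC peak within 1 kb of its start in both EGFP samples. The peaks were chr3:127842479-127842853 and chr3:127842326-127843044 of hg19, at the start of a gene that runs on the minus strand from 127842671 to 127799800. Its summits lay 2 and 53 bp inside the gene start, with fold enrichments over local background of 6.80 in replicate 1 and 10.5 in replicate 2. In replicate 2 the RUVBL1 peak exceeded 96.2% of the 5396 peaks, and in replicate 1 it exceeded 76.8% of the 940 peaks. Over all genes of the table, 878 had a peak in both samples (4.31%). The count of 1 of 10 cofactor genes rests on a list in replicate 1 that was much shorter than the list in replicate 2.

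In EGFP replicate 2 alone, 8 of 10 cofactor genes had a MYC peak within 1 kb of the start, against 23.1% of all genes. TRRAP and ZBTB17 had none. After RUVBL1, the enrichments at the start were 6.43 at KAT2A, 6.29 at KAT5, 5.70 at HCFC1, 5.35 at WDR5, 4.94 at BPTF, 4.32 at RUVBL2 and 4.02 at EP400. WDR5 had a second peak, of 5.33, upstream of its start. EP400 also had a peak of 6.18 beyond its 3' end and KAT5 one of 5.30, the latter within 1 kb of the start of RNASEH2C. The RUVBL2 and HCFC1 peaks lay within 1 kb of the starts of GYS1 and TMEM187, so these peaks cannot be assigned to 1 gene. 3 of the 8 genes had CACGTG within 100 bp of a summit at the start: WDR5, KAT5 and BPTF.

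No cofactor gene had a MYC peak in the SNF5 samples, in which 0.643% of all genes had one. The SNF5 lists held 137 and 27 peaks. For OmoMYC, both files contain a single entry that the depositors named as fake, at one shared position, and it was read as a placeholder and thus as 0 peaks. The deposited lists give no reads at places without a peak, so binding below the caller's threshold was not measured.

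Of the 10 cofactor genes, 8 had gene body reads, the reads between 1 kb past the start and the end of the transcript. HCFC1 and KAT2A were listed at 0 in both regions in all 9 samples. The table holds 1708 such transcripts, among them those of DDX5, VARS and HYOU1. TRRAP was listed at 0 in the promoter-proximal window, the 50 bp stretch with most reads near the start, and 129 transcripts with at least 1000 gene body reads were listed in the same way. These entries can be failed counts and were read as no measurement. HCFC1 and KAT2A had MYC peaks in EGFP replicate 2, and of the 4712 genes with a peak in that sample, 159 had no gene body read.

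Levels are given as RPM, reads scaled to 1000000 gene body reads of each sample after RLE correction. Gene body density in EGFP cells, in RPM per kb, was highest for KAT5, at 3.75 ± 0.494 (SD, n = 3), and lowest for TRRAP, at 0.879 ± 0.133. RUVBL2 had 3.27 ± 0.844, WDR5 3.09 ± 0.748 and RUVBL1 2.80 ± 0.0868, and the 3 overlapped: RUVBL1 had rank 2 among the 8 genes in replicate 2 and rank 4 in replicates 1 and 3. EP400 had 1.74 ± 0.20, BPTF 1.28 ± 0.0481 and ZBTB17 1.09 ± 0.194. KAT5, EP400, BPTF, ZBTB17 and TRRAP held the same rank in all 3 EGFP samples.

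Gene body reads of 5 of the 8 measured cofactor genes fell with SNF5: WDR5, RUVBL1, RUVBL2, EP400 and KAT5. None rose. Across the table, 17.1% of 15060 tested genes fell and 17.3% rose with SNF5 (edgeR quasi-likelihood test with the replicate number as a block, Benjamini-Hochberg adjusted p under 0.05). The median log2 fold change was -0.25 over the 8 genes and -0.03 over all genes.

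**Figure D1:**
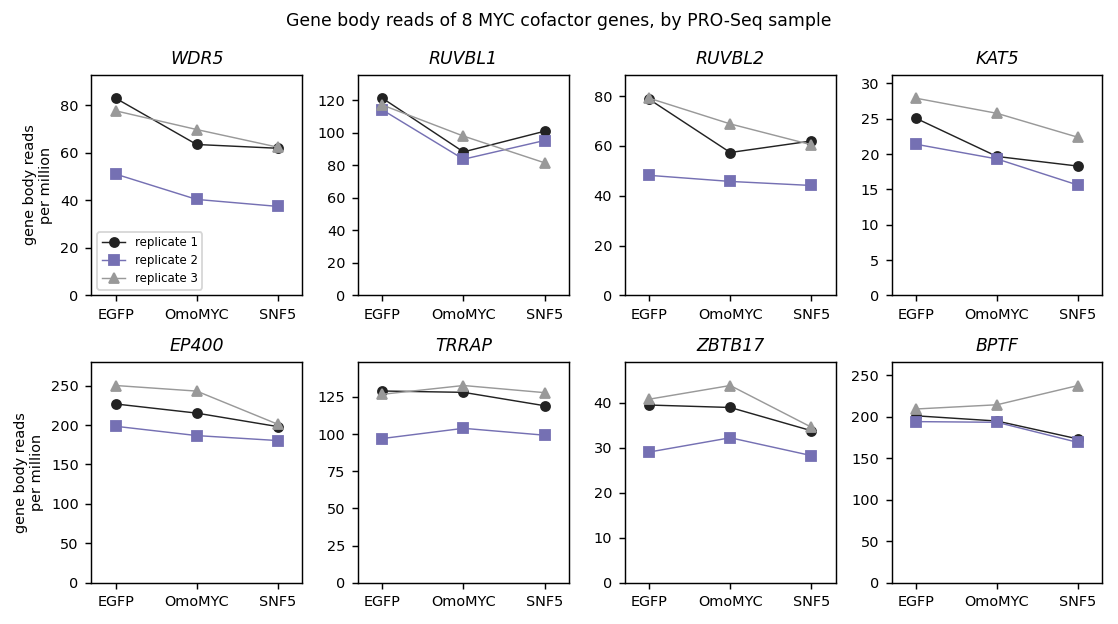
Gene body RPM (y axis, from 0) of the 8 measured cofactor genes in each PRO-Seq sample (x axis, construct), with lines joining samples of the same replicate number. WDR5, RUVBL1, RUVBL2, KAT5, EP400 and ZBTB17 were lower with SNF5 in all 3 pairs, while TRRAP and BPTF were not. The share of all genes lower in all 3 pairs was not computed.

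WDR5, the WD40 scaffold of the histone H3K4 methyltransferases, had 83.0, 51.1 and 77.7 gene body RPM in EGFP replicates 1, 2 and 3. It had 63.5, 40.4 and 69.8 with OmoMYC and 62.0, 37.5 and 62.4 with SNF5. The groups overlapped because replicate 2 was low in all of them, and each pair of the same number was lower with either construct. WDR5 fell by 18.3% with OmoMYC (log2 fold change -0.29, standard error 0.06, adjusted p = 0.032) and fell by 23.9% with SNF5 (-0.40, standard error 0.06, adjusted p = 0.0022).

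RUVBL1 had 121.2, 114.0 and 117.0 gene body RPM with EGFP. It had 88.2, 83.7 and 97.9 with OmoMYC and 100.9, 95.2 and 81.5 with SNF5. The EGFP samples lay above every sample of the other constructs, and how many of all genes separate in this way was not computed. RUVBL1 fell by 23.3% with OmoMYC (standard error 0.09 on the log2 scale, adjusted p = 0.035) and fell by 21.3% with SNF5 (adjusted p = 0.015). RUVBL2, its partner ATPase, had 78.7, 48.2 and 79.2 with EGFP, 57.4, 45.8 and 68.8 with OmoMYC and 62.0, 44.1 and 60.5 with SNF5. RUVBL2 fell by 18.2% with SNF5 (adjusted p = 0.024), and with OmoMYC its log2 fold change was -0.25 (adjusted p = 0.087).

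KAT5 had 25.1, 21.4 and 27.9 gene body RPM with EGFP, 19.7, 19.3 and 25.8 with OmoMYC and 18.3, 15.6 and 22.4 with SNF5. The SNF5 sample was lowest within each replicate number. KAT5 fell by 24.6% with SNF5 (log2 fold change -0.41, standard error 0.08, adjusted p = 0.0065), and with OmoMYC its log2 fold change was -0.20 (adjusted p = 0.15). EP400 had 226.7, 198.4 and 250.1 with EGFP, 215.1, 186.6 and 243.0 with OmoMYC and 198.0, 180.3 and 201.0 with SNF5. EP400 fell by 13.9% with SNF5 (standard error 0.06 on the log2 scale, adjusted p = 0.017), and with OmoMYC its log2 fold change was -0.07 (adjusted p = 0.46).

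TRRAP, ZBTB17 and BPTF passed the test with neither construct. TRRAP had 129.0, 97.0 and 126.8 gene body RPM with EGFP, 128.1, 103.9 and 132.7 with OmoMYC and 119.1, 99.3 and 127.9 with SNF5 (log2 fold change -0.02, standard error 0.05, adjusted p = 0.76). ZBTB17 had 39.5, 29.0 and 40.8 with EGFP, 38.9, 32.2 and 43.8 with OmoMYC and 33.8, 28.3 and 34.6 with SNF5. Its SNF5 samples were the lowest of each replicate number, with a log2 fold change against EGFP of -0.17 (adjusted p = 0.094). BPTF had 201.1, 194.1 and 209.3 with EGFP, 194.8, 193.3 and 214.4 with OmoMYC and 173.2, 169.0 and 237.6 with SNF5, so with SNF5 replicate 3 went the other way from replicates 1 and 2.

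With OmoMYC, 2 of the 8 genes were called lower, WDR5 and RUVBL1, against 4.52% of all genes, and none was called higher, against 3.98%. Both contrasts share the EGFP samples. Compared directly, SNF5 and OmoMYC differed past the threshold for 1 cofactor gene. ZBTB17 was lower with SNF5 by a log2 fold change of -0.25 (edgeR, standard error 0.07, adjusted p = 0.041). Of all 15060 tested genes, 1719 were called higher and 1136 (7.54%) lower with SNF5 than with OmoMYC. KAT5 had -0.20 (adjusted p = 0.12) and EP400 -0.15 (adjusted p = 0.10) in this comparison, so the genes called with SNF5 and not with OmoMYC were not shown to differ between them.

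These calls depend on the pairing and on single replicates. Without the replicate block no cofactor gene was called in any of the 3 comparisons. Without replicate 2 none was called with either construct against EGFP, without replicate 1 none was called with OmoMYC and WDR5 alone with SNF5, and without replicate 3 the counts were 5 and 6. The calls over all genes moved with them: the share called lower with OmoMYC was 0% without replicate 1 or 2 and 25.2% without replicate 3, and with SNF5 it was 3.19%, 2.12% and 32.3% without replicates 1, 2 and 3. The ZBTB17 difference between SNF5 and OmoMYC was also lost in a fit of only those constructs (adjusted p = 0.055), without replicate 1 (adjusted p = 0.22) and without replicate 2 (adjusted p = 0.19).

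**Figure D2:**
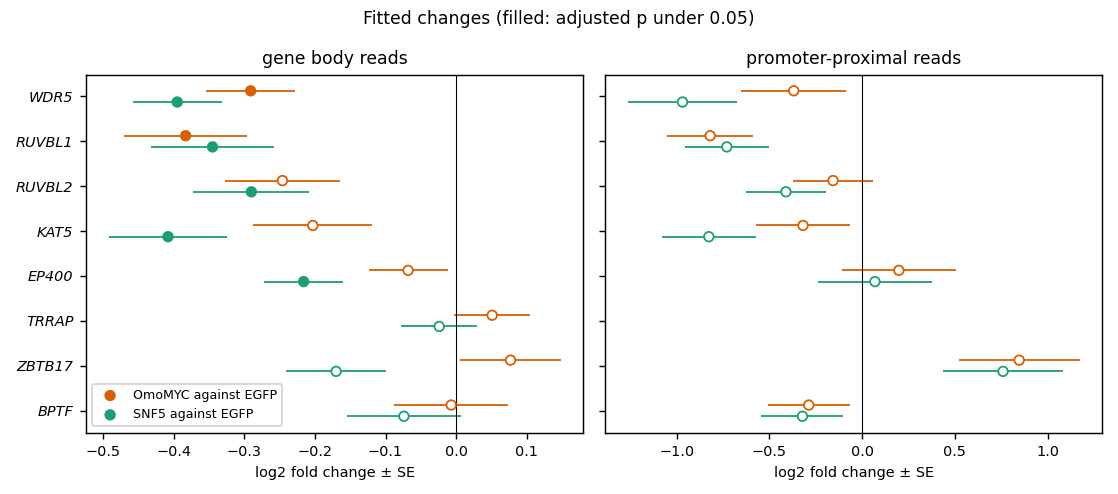
Fitted log2 fold changes (x axis, ± standard error) of gene body reads (left) and promoter-proximal reads (right) against EGFP, with filled points at an adjusted p under 0.05. The gene body panel has 2 filled points for OmoMYC and 5 for SNF5, and the promoter-proximal panel, which has no TRRAP, has none.

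In the promoter-proximal window, no cofactor gene of the 7 measured passed the test with OmoMYC or SNF5, against 1.72% and 4.31% of 11241 genes in either direction (edgeR). At an unadjusted p under 0.05 the counts were 2 and 4 of 7, beside 15.4% and 20.3% of all genes, and DESeq2 called 0 in each. RUVBL1 had 35, 181 and 198 reads with EGFP, 28, 89 and 105 with OmoMYC and 22, 137 and 116 with SNF5. Scaled for depth, it was lower in all 3 pairs with both constructs, with log2 fold changes of -0.82 (standard error 0.23, adjusted p = 0.056) and -0.73 (standard error 0.23, adjusted p = 0.056). KAT5 had 94, 1191 and 993 reads with EGFP and 112, 635 and 457 with SNF5, a log2 fold change of -0.83 (standard error 0.25, adjusted p = 0.052).

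WDR5 had 35, 53 and 36 promoter-proximal reads with EGFP and 25, 20 and 24 with SNF5, a log2 fold change of -0.97 (standard error 0.30, adjusted p = 0.052). These genes lay just outside the threshold, and the standard errors in this window were several times those of the gene body. ZBTB17 pointed the other way, with 11, 37 and 42 reads with EGFP, 17, 77 and 66 with OmoMYC and 11, 46 and 124 with SNF5. Its log2 fold changes were 0.85 (standard error 0.33, adjusted p = 0.19) and 0.76 (adjusted p = 0.17), and with SNF5 the gain lay in replicate 3. Scaling by the promoter-proximal counts themselves moved the median of all genes with OmoMYC from 0.12 to -0.03 and called RUVBL1 lower with OmoMYC, and WDR5, RUVBL1 and KAT5 lower with SNF5. The share of all genes called lower also rose with this scaling, from 0.16% to 0.961% with OmoMYC and from 1.71% to 5.22% with SNF5.

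The pausing index, the density of reads in the promoter-proximal window over that in the gene body, differed widely between the genes and between replicates. In EGFP replicates 1, 2 and 3 it was 14.4, 247.4 and 101.8 at KAT5, 14.6, 202.4 and 63.5 at RUVBL2, and 12.3, 131.7 and 82.9 at BPTF. EP400, at 7.29, 7.46 and 7.40, was low in all, from only 22, 17 and 33 promoter-proximal reads. WDR5 was lower still in replicates 1 and 3, at 5.59 and 4.59, as were ZBTB17 (5.37) and RUVBL1 (7.01) in replicate 1. Replicate 1 was far below the others at KAT5, RUVBL2 and BPTF, and it had the smallest promoter-proximal totals.

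**Figure D3:**
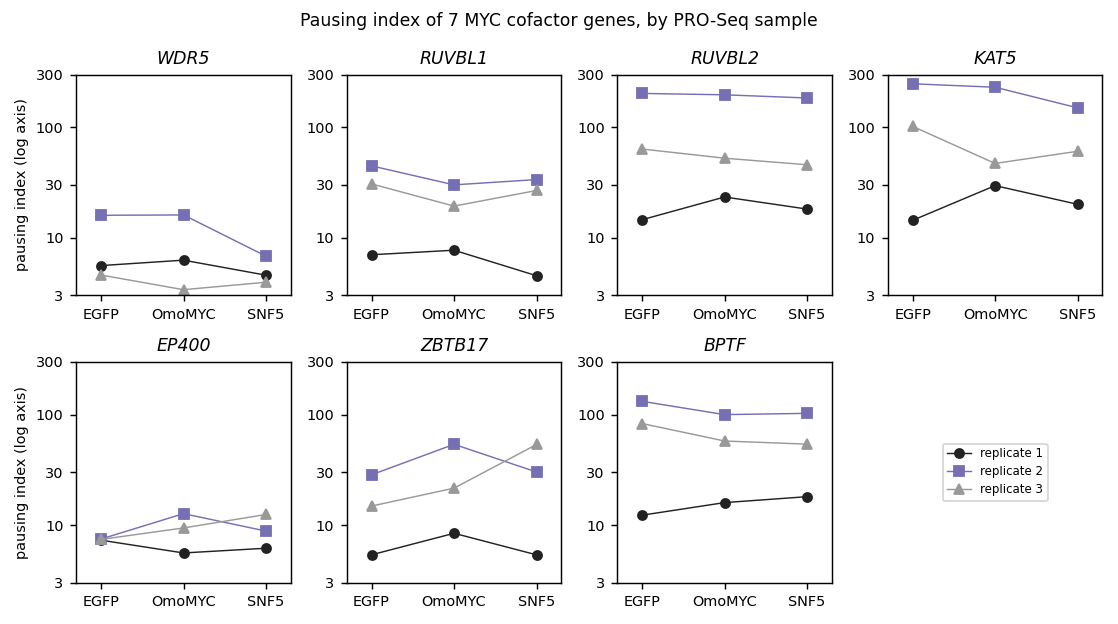
Pausing index (y axis, log scale, the same in all panels) of the 7 cofactor genes with promoter-proximal reads in each PRO-Seq sample, with lines joining samples of the same replicate number. At RUVBL2, KAT5, RUVBL1 and BPTF the replicates differ by more than the constructs do.

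No cofactor gene changed its pausing index past the threshold with either construct (edgeR), against 2.01% of 11171 genes with OmoMYC and 3.65% with SNF5. At an unadjusted p under 0.05 the count was 1 of 7 with each construct, about the share over all genes (15.4% with OmoMYC and 18.6% with SNF5), and DESeq2 was not run on this measure. The log2 changes ran from -0.45 at RUVBL1 to 0.73 at ZBTB17 with OmoMYC, and from -0.58 at WDR5 to 0.87 at ZBTB17 with SNF5. ZBTB17 had pausing indices of 5.37, 28.5 and 14.8 with EGFP, 8.42, 53.8 and 21.6 with OmoMYC and 5.37, 30.2 and 53.6 with SNF5. It was higher in all 3 pairs with OmoMYC (standard error 0.32, adjusted p = 0.25), and with SNF5 the rise lay in replicate 3 (standard error 0.32, adjusted p = 0.12).

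Open chromatin was found at the start of 6 of the 10 cofactor genes in at least 2 of 3 EGFP samples: RUVBL1, RUVBL2, KAT5, EP400, HCFC1 and BPTF. The share over all 16172 genes with a GRCh38 start was 43.4%. RUVBL1, RUVBL2 and KAT5 had an ATAC-Seq peak within 1 kb of the start in all 9 samples, as did 26.7% of all genes. KAT2A had none in any sample.

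Among peaks within 1 kb of a start, RUVBL1 had the highest ATAC-Seq enrichment of the 10 genes in every sample, with 7.28, 8.67 and 6.03 with EGFP, 7.34, 10.6 and 7.86 with OmoMYC and 9.70, 10.3 and 9.04 with SNF5. The SNF5 samples lay above all EGFP samples. RUVBL2 had 5.63, 7.13 and 5.78 with EGFP, 5.10, 6.72 and 5.11 with OmoMYC and 7.10, 8.84 and 7.29 with SNF5. KAT5 had 5.72, 5.96 and 5.04 with EGFP, 4.83, 7.23 and 5.20 with OmoMYC and 6.68, 6.06 and 6.44 with SNF5. The SNF5 samples lay above all EGFP samples at KAT5, and the groups overlapped at RUVBL2, BPTF and HCFC1. BPTF had 5.80 and 6.55 in its EGFP samples with a peak and 5.79, 5.68 and 6.61 with SNF5, and HCFC1 had 4.62 and 5.66 with EGFP and 4.73, 5.76 and 4.72 with SNF5. EP400 had 4.79 and 7.03 with EGFP and 6.39, 7.31 and 7.43 with SNF5, so its groups overlapped. No test was run on these values, since the peak lists hold no read counts. How many of all open starts separate SNF5 from EGFP as RUVBL1 and KAT5 do was not computed, so no gain particular to these genes is shown. 

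TRRAP and ZBTB17 had a peak within 1 kb of the start in 1 EGFP sample, 1 OmoMYC sample and all 3 SNF5 samples, and WDR5 in 1, 1 and 2. At TRRAP and at ZBTB17 the SNF5 peaks lay at separate sites, and the site over the start itself had a peak in 2 SNF5 samples. The share of all genes with this pattern was not computed. The EGFP lists held 9208 to 17817 peaks, the OmoMYC lists 7260 to 23684 and the SNF5 lists 22722 to 33596. The samples with a peak at TRRAP, ZBTB17 and WDR5 outside SNF5 were replicate 2 of EGFP and of OmoMYC, which had the longest list of their construct. The part of list length in these differences was not tested.

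**Figure D4:**
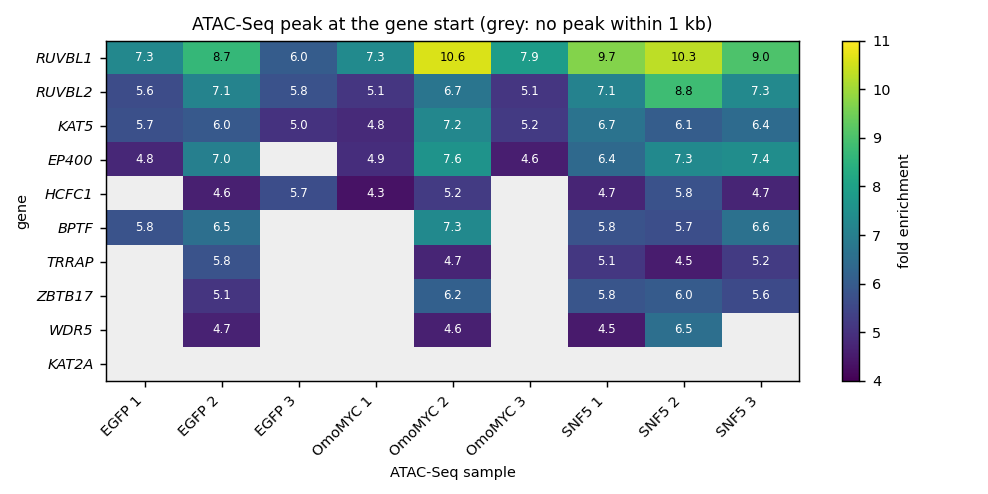
Fold enrichment over local background (color) of the strongest ATAC-Seq peak within 1 kb of each cofactor gene start (rows) in each sample (columns), with grey for no peak. RUVBL1, RUVBL2 and KAT5 are filled in all 9 samples and KAT2A in none.

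The partners of the cofactors in their complexes were counted from 5 lists of 76 genes, of which 72 were tested for gene body reads. With SNF5, 8 were called higher and 11 lower, and 17.3% and 17.1% of all genes were. With OmoMYC, 3 were called higher and 2 lower, beside 3.98% and 4.52% of all genes. The partner counts were thus near or below the shares over all genes, and those of the single lists are descriptions. The COMPASS methyltransferase list, to which WDR5 belongs, had 2 higher and 4 lower of 15 tested with SNF5, beside 17.3% and 17.1% of all genes. There SETD1A, a catalytic subunit, had a log2 fold change of -0.37 (adjusted p = 0.0015), CXXC1, which binds CpG islands, had -0.56 (adjusted p = 0.015), and HCFC2, a paralog of HCFC1, had 0.58 (adjusted p = 0.0030).

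The TIP60/NuA4 list, of the KAT5, EP400 and TRRAP complex, had 2 higher and 2 lower of 13 with SNF5, close to the 17.3% and 17.1% of all genes, and 0 called with OmoMYC (edgeR). Among them, MRGBP had a log2 fold change of -0.37 (adjusted p = 0.026), EPC2 0.19 (adjusted p = 0.021) and ING3 0.29 (adjusted p = 0.046) with SNF5. The SAGA and ATAC list had 2 higher and 2 lower of 25 with SNF5, below the 17.3% and 17.1% of all genes. KAT2B, a paralog of KAT2A, rose with OmoMYC (0.80, adjusted p = 0.020) and with SNF5 (0.83, adjusted p = 0.0020). POLE3, a histone-fold subunit also found in DNA polymerase epsilon, fell with both (-0.70, adjusted p = 0.013, and -0.64, adjusted p = 0.0014), and MBIP had 0.31 with SNF5 (adjusted p = 0.0088).

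The INO80, SRCAP and R2TP list, whose complexes contain RUVBL1 and RUVBL2, had 1 higher and 3 lower of 14 with SNF5, where 17.3% and 17.1% of all genes were called. INO80C rose (0.51, adjusted p = 0.0048), and SRCAP (-0.17, adjusted p = 0.035) and MCRS1 (-0.22, adjusted p = 0.047) fell. The NURF list had 1 of 5 called higher with SNF5, again near the 17.3% of all genes: SMARCA1, an ATPase, at 0.27 (adjusted p = 0.015).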

How the data were processed

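G401 cells with EGFP, OmoMYC or SNF5 were compared within each assay. For PRO-Seq, the authors trimmed reads, aligned them to hg19 with Bowtie2 and deposited raw counts for a promoter-proximal window and the gene body of each RefSeq transcript, with the gene body signal as a density. For MYC ChIP-Seq (hg19) and ATAC-Seq (hg38), the authors called peaks in each sample with MACS2, and the deposited lists give the fold enrichment ratio, the −log10 p and q values and a score for each peak. IgG samples and the score were not used here.

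Counts were tested with edgeR 4.0.16 in R 4.3.3 (quasi-likelihood test, all 9 samples, genes with a mean of at least 10 counts), with gene body totals scaled by RLE as offsets for both regions and p-values adjusted over all genes. DESeq2 1.42.0 was an alternative. The pausing index model had a term per sample and tested construct by region. Replicate numbers were a block, as the study's methods account for batch: deviations of samples with the same number correlated at 0.768 to 0.889 in gene bodies and 0.691 to 0.855 in the promoter-proximal window, against at most 0.131 for other pairs. The fits were tested on simulated data, in which few small (a log2 change of 1) and all large promoter-proximal changes were recovered. Every promoter-proximal change of a cofactor gene in the main fits was smaller than that small size. A change that was not called there may thus not have been detectable. MYC peaks were assigned to the starts in the table when the summit lay within 1 kb. ATAC peaks were assigned to GRCh38 starts listed in GENCODE release 44 when any part of the peak lay within 1 kb. No coordinate was converted. Motifs were read from GRCh37.

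The cofactor genes and partner lists were chosen with earlier results of these data known. All cofactor genes are named, and for each partner list up to 3 genes with the lowest adjusted p under 0.05 in gene body reads. INO80B and BAP18 were not matched in the table.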

Additional observations from a re-analysis of the deposited data

How the results depend on the processing

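Without the replicate block, gene body calls among the cofactor genes went from 2 (OmoMYC against EGFP), 5 (SNF5 against EGFP) and 1 (SNF5 against OmoMYC) to 0 in each, and over all genes the calls lower went from 680, 2570 and 1136 to 0, 7 and 6. The block changed no call among the cofactor genes in the promoter-proximal window or the pausing index, where the count was 0 with and without it. Without the block, 0 of 11241 genes were called in that window and 0 of 11171 for the pausing index, with either construct. The count of 0 among the cofactor genes there thus shows no stability. With each replicate left out in turn, the gene body counts ranged from 0 to 5, 0 to 6 and 0 to 3, the promoter-proximal counts from 0 to 1 with both constructs, and the pausing index count from 0 to 1 with SNF5 and 0 with OmoMYC. Calls over all genes moved too. Promoter-proximal calls with SNF5 were 38 higher and 4 lower of 11008 without replicate 2, and 385 and 619 of 11468 without replicate 1. With OmoMYC they were 3 and 0, and 155 and 52. Pausing index calls with SNF5 were 3 and 6 of 10957 without replicate 2, and 276 and 342 of 11386 without replicate 1. Without replicate 3, the 3 genes that differed between SNF5 and OmoMYC were RUVBL1 (higher with SNF5), ZBTB17 and BPTF (lower). Over all 14939 genes tested in that setting, 3236 were called higher and 3033 lower with SNF5. A fit of only SNF5 and OmoMYC gave 0, losing ZBTB17. With no filter on counts, and with RLE scaling of promoter-proximal counts, the promoter-proximal counts were 1 with OmoMYC and 3 with SNF5, all lower. Without the filter, 0.139% of all genes were called lower with OmoMYC and 1.85% with SNF5. With the RLE scaling these shares were 0.961% and 5.22%. TMM scaling, DESeq2 and a mean of at least 50 counts gave the same gene body genes. MYC peaks in both EGFP samples went from 1 to 8 genes without replicate 1 (range 1 to 8), and over all genes from 4.31% to 23.1%. Open starts went from 6 to 3 genes at a −log10 q of at least 10, and to 4, 3 and 5 genes without EGFP replicate 1, 2 or 3. The counts over all genes in these settings are not given, so no drop particular to the cofactor genes is shown. The cause was not tested.

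With each replicate left out in turn, 17 fitted values (15 results) turned sign, for genes not called with all replicates. In gene bodies, BPTF ranged from -0.034 to 0.012 with OmoMYC and from -0.219 to 0.002 with SNF5, TRRAP from -0.057 to 0.013 with SNF5, and for SNF5 against OmoMYC RUVBL1 ranged from -0.047 to 0.186 and RUVBL2 from -0.126 to 0.029. In the promoter-proximal window, with OmoMYC RUVBL2 ranged from -0.305 to 0.023, EP400 from -0.016 to 0.47 and KAT5 from -0.704 to 0.119, and with SNF5 EP400 ranged from -0.191 to 0.281 and ZBTB17 from -0.035 to 1.108. For the pausing index, with OmoMYC WDR5 ranged from -0.187 to 0.08, RUVBL2 from -0.159 to 0.269 and KAT5 from -0.609 to 0.392, and with SNF5 RUVBL2 ranged from -0.303 to 0.057 and EP400 from -0.014 to 0.532.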
